A study of Mus musculus with 16 samples.

Results

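Of 20601 genes in the expression table of a mouse liver cancer model, 7 encode hormones that the liver releases in fasting or stress, or the receptor parts that read them. They were taken by gene symbol, all 7 were listed, and all 7 passed the filter on low values. Fgf21 encodes fibroblast growth factor 21, Klb encodes beta-Klotho, the co-receptor that FGF21 needs, and Fgfr4 encodes the main FGF receptor of hepatocytes. Angptl4, Angptl6 and Angptl8 encode angiopoietin-like proteins, and Gdf15 encodes growth differentiation factor 15. Each mouse received a hydrodynamic injection of 3 plasmids. Human N-Ras was on 19 µg, human c-Myc on 1 µg, and 2 µg carried the Sleeping Beauty transposase, which inserts genes into hepatocyte DNA. All 16 samples, nontumor liver included, thus come from mice that were given these oncogenes. At week 4 the normal diet (ND) was kept or was replaced by a ketogenic diet (KD), whose make-up was 89.5% fat, 10.4% protein and 0.1% carbohydrate. After 4 weeks of this, at week 8, liver tumors and nontumor liver of 8 mice were taken. The 4 groups of 4 samples are therefore ND nontumor, KD nontumor, ND tumor and KD tumor. Strain, sex, age and time of day were not given in the labels, and nothing there says which tumor and nontumor samples share a mouse, so the p-values reflect the spread between samples, which may be technical in part.

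FGF21 is released by the fasted or protein-restricted liver and acts through FGF receptors joined to beta-Klotho; in mice its gene is driven by PPAR alpha, the nuclear receptor of fat oxidation, and by ATF4, a factor of the integrated stress response. Beta-Klotho with FGFR4 is the hepatocyte receptor of FGF15, the gut hormone that lowers bile acid synthesis. ANGPTL4, itself a PPAR alpha target, and ANGPTL8, which is raised by feeding and insulin, both act to inhibit lipoprotein lipase, the enzyme that clears blood triglycerides. GDF15 is a stress hormone that lowers appetite through the brainstem receptor GFRAL. A ketogenic diet in mice is known to raise FGF21 in liver and blood.

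Levels are in TPM, a share of transcripts that is corrected for gene length and set to a fixed total. Fgf21 and Angptl8 were higher and Angptl4 was lower in ND tumor than in ND nontumor. KD tumor had higher Fgf21 and lower Angptl4, Klb and Fgfr4 than KD nontumor. Between the tumor groups, Fgfr4, Angptl6 and Angptl8 were lower on KD. No member passed for the diet in nontumor liver, Fgf21 included.

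The listed genes held 66.79% to 88.45% of the TPM total in the nontumor libraries other than ND nontumor 4, which held 7.38%, and 49.96% to 79.93% in tumors. For this reason TPM was divided by a median-of-ratios factor per library, 0.1262 in ND nontumor 4 and 0.9221 to 1.4978 in the other 15, and values below are rescaled TPM unless the deposited scale is named. Whole reads recovered from the TPM steps summed to 3518966 to 14074042 per library over the listed genes, with the fewest in ND nontumor 4. The fewest reads on a member were 28 for Klb in 1 ND tumor library, 34 for Angptl6 and 40 for Fgf21, and Angptl8 had at least 2480. The 6 listed of 7 hepatocyte markers summed to 26760 to 78990 TPM in nontumor and 60550 to 165100 TPM in tumor libraries, with every KD tumor sum above every nontumor sum. Such sums weigh abundant transcripts most and do not count cells. Hnf4a, also on this list, differed in tumor from nontumor by only -0.12 log2 units on ND and -0.08 on KD. By a chi-square per degree of freedom on reads, KD nontumor 1 and 2 (12.4) and KD nontumor 3 and 4 (23.4) each resembled one another more than libraries across these pairs did (68.2 to 126.7). Fgfr4, Angptl4 and Angptl8 were higher in KD nontumor 3 and 4 than in 1 and 2, as was Klb. In bulk tissue, fewer cells that express a gene and less of its RNA per cell cannot be told apart.

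**Figure D1:**
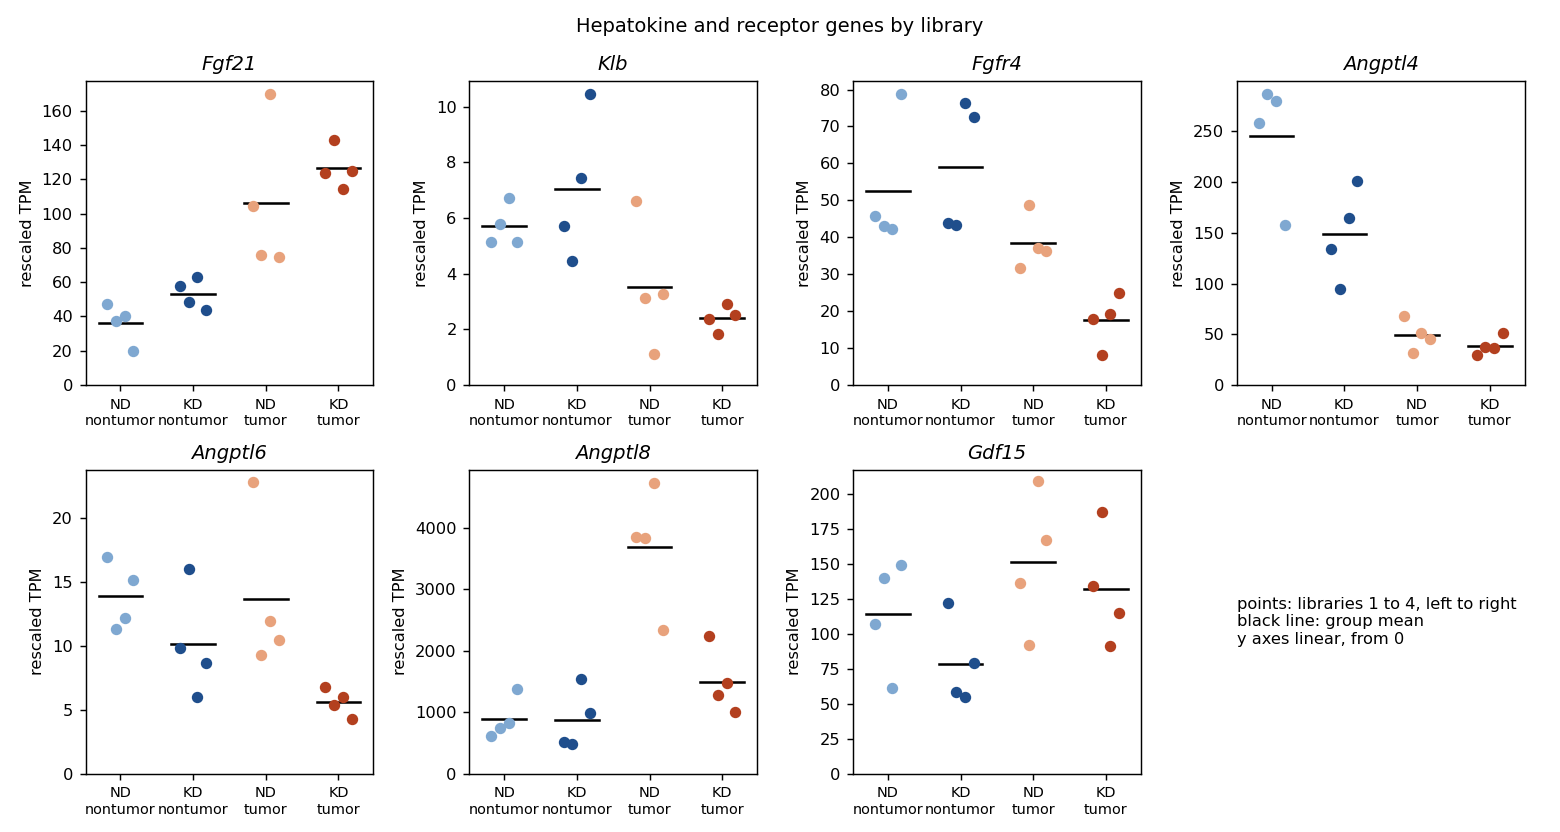
Rescaled TPM of each of the 7 genes in the 16 libraries, by group, on linear axes that start at 0, with a black line at each group mean (n = 4). Fgf21 is higher in all 8 tumor than in all 8 nontumor libraries, Angptl4 is lower in all 8, and Angptl8 is highest in the 4 ND tumor libraries. How many of all genes split the libraries in these ways was not computed.

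Log2 fold changes are given with their standard error from a limma fit over all 13432 tested genes, on the log2(rescaled TPM + 1) scale, with Benjamini-Hochberg adjusted p-values and a threshold of 0.05. In ND tumor against ND nontumor, 3 of 7 members passed, 2 higher and 1 lower, where 28.7% of all tested genes passed. In KD tumor against KD nontumor, 4 of 7 passed, 1 higher and 3 lower, against 32.5% of all genes. In KD tumor against ND tumor, 3 of 7 passed, all lower, against 15.7% of all genes (8.49% lower). For the diet in nontumor liver 0 of 7 passed, against 0.0447% of all genes, which is 6 genes. At an unadjusted p below 0.05 there were 2 members, Fgf21 and Angptl4, where 8.91% of all genes were. By voom on recovered reads 0 members passed at the adjusted threshold and 1, Angptl4, at the unadjusted one, where 7.81% of all genes did. For the interaction, which asks whether the diet difference differed between tumor and nontumor liver, 0 of 7 passed against 0.61% of all genes. There 2 members, Fgfr4 and Angptl8, were below an unadjusted p of 0.05, as were 17.95% of all genes. Voom gave the same member counts, with 18.02% of all genes below the unadjusted threshold. Groups did not overlap in 27.5%, 33.1%, 22.9% and 5.98% of all genes in the 4 comparisons, in the order given. The share of all genes that separate all 8 tumor from all 8 nontumor libraries was not computed. Among all genes the higher and lower shares were 14.5% and 14.2% in ND tumor, 16.3% and 16.2% in KD tumor, and 7.21% higher between tumors. They were 0.00744% and 0.0372% for the diet in nontumor liver and 0.208% and 0.402% for the interaction. On the deposited scale 2, 3, 0, 0 and 0 members passed in the 5 tests, against 10.6%, 8.27%, 0.841%, 0.484% and 0.104% of all genes.

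**Figure D2:**
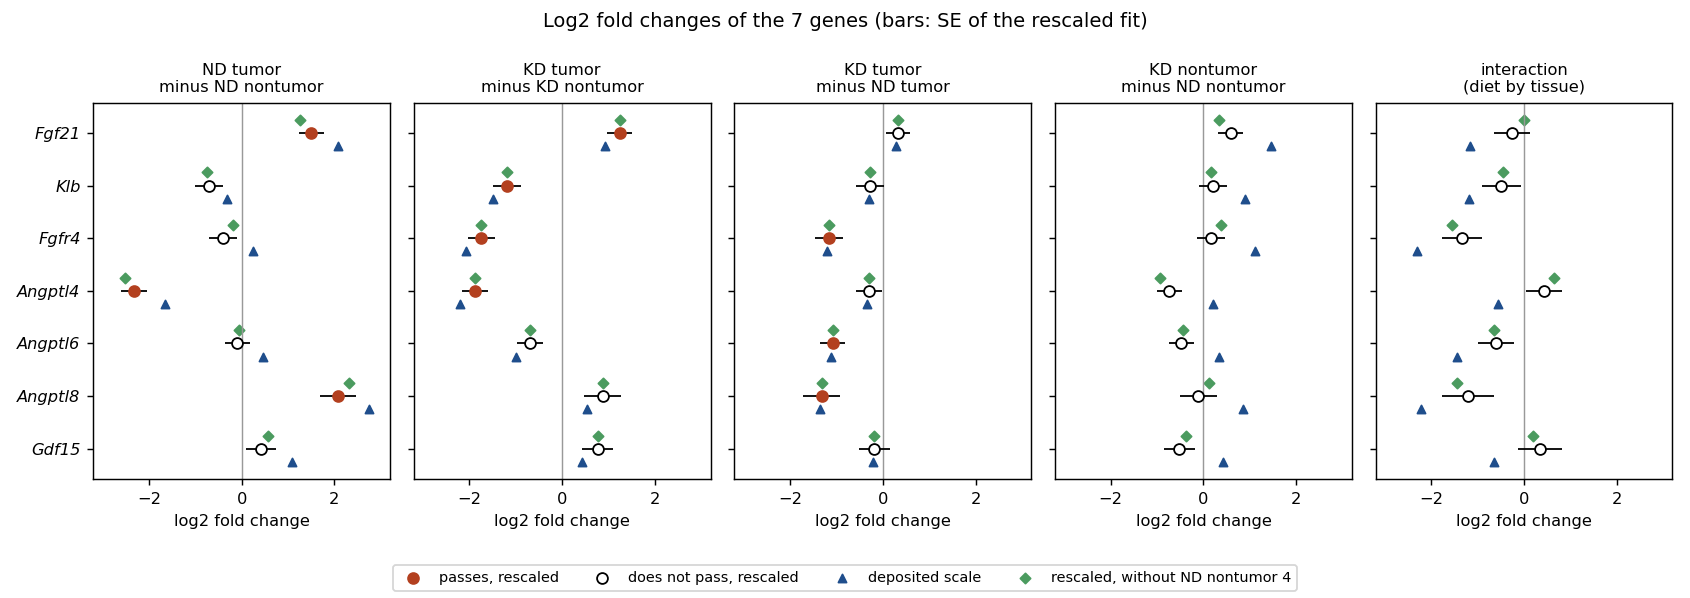
Log2 fold change of each gene in the 4 comparisons and the interaction; circles are the rescaled fit with bars of 1 SE (filled where the adjusted p is below 0.05), triangles the deposited scale and diamonds the rescaled fit without ND nontumor 4. The 10 filled circles keep their side of 0 under both alternatives, while several open circles of the nontumor diet comparison and the interaction change side on the deposited scale.

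Fgf21 (chromosome 7, 45613886 to 45615490, minus strand, GRCm38; 3 exon blocks, 951 exon bases) encodes the hormone itself. Its levels were 47.0, 37.5, 40.4 and 20.1 TPM in ND nontumor and 57.7, 48.4, 63.2 and 43.6 TPM in KD nontumor. In ND tumor it was at 104.6, 75.9, 169.8 and 74.8 TPM, and in KD tumor at 123.6, 142.9, 114.3 and 124.8 TPM. Every tumor library was above every nontumor library, and ND nontumor 4 was the lowest of all. Fgf21 rose 1.51 ± 0.27 log2 units in ND tumor (adjusted p = 0.000585), from 36.3 ± 11.5 to 106.3 ± 44.5 TPM (SD, n = 4). Without ND nontumor 4 the rise was 1.25 ± 0.25 (adjusted p = 0.00163). It rose 1.24 ± 0.27 in KD tumor (adjusted p = 0.00246), from 53.2 ± 8.9 to 126.4 ± 11.9 TPM. On the deposited scale the KD value was 0.91 with adjusted p = 0.465, and 0.91 with adjusted p = 0.0178 once ND nontumor 4 was left out as well. In nontumor liver the diets differed by 0.59 ± 0.27 (adjusted p = 0.537), with overlapping groups, and without ND nontumor 4 by 0.34 ± 0.25 (adjusted p = 0.855). The same difference was 1.45 ± 0.66 on the deposited scale (adjusted p = 0.347). In tumors the diets differed by 0.33 ± 0.27 (adjusted p = 0.42). The coefficient of variation was 9.43% in KD tumor and 41.9% in ND tumor, where replicate 3 stood at 169.8 TPM.

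Promoter windows from RefSeq (GRCm38.p6) were found for 6 of the 7 genes, in 7 entries, and the 250 bases before the start site were searched on both strands for 4 short motifs. These were TGATGNAA, the C/EBP-ATF element that ATF4 binds, CACGTG, the E-box of MYC and related factors, TATAAA, the TATA box, and a direct repeat with a spacer of 1 base, read by PPAR alpha. No motif overlaps another in the windows shown. They occur in 3.45%, 6.02%, 12.37% and 0.34% of 32851 promoter windows of the same length. The windows of Fgf21 and Angptl8 are printed because both genes rose in ND tumor and both hold the C/EBP-ATF element. Capitals mark motif matches; each sequence runs 5′ to 3′ along the gene's strand and ends at the base before the start site.
Fgf21 (chr7:45615491-45615740, minus strand): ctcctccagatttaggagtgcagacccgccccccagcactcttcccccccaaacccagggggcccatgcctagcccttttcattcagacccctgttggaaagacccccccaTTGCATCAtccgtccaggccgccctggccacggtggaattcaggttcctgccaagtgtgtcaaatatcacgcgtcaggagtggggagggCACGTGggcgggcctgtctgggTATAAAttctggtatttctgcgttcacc
Angptl8 (chr9:21835260-21835509, plus strand): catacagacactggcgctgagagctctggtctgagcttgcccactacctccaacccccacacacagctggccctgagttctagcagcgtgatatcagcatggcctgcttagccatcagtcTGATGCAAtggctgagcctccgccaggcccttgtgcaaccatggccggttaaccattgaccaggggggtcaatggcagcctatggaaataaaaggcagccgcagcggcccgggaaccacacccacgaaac
In Fgf21 the C/EBP-ATF element lies on the opposite strand at bases -139 to -132, the E-box at -50 to -45 and TATAAA at -28 to -23. In Angptl8 the element lies on the gene's strand at -130 to -123. Gdf15 has an E-box at -83 to -78 of the inner of its 2 listed start sites and the direct repeat at -55 to -43 of the outer one. The windows of Klb, Fgfr4 and Angptl6 hold none of the 4 motifs. A match describes letters only, and no binding was measured here.

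Klb (chromosome 5, 65348314 to 65384007) encodes the co-receptor and had the lowest mean of the 7 genes in each group, although it was above Angptl6 in KD nontumor 3 and 4. It was at 5.14, 5.78, 6.71 and 5.15 TPM in ND nontumor and 5.73, 4.46, 7.45 and 10.45 TPM in KD nontumor. In ND tumor the values were 6.61, 3.14, 1.12 and 3.27 TPM, and in KD tumor 2.37, 1.82, 2.92 and 2.52 TPM. All 4 KD tumor libraries lay below all nontumor libraries, whereas ND tumor 1 lay within the nontumor range. Klb fell in KD tumor by 1.19 ± 0.30 log2 units (adjusted p = 0.00662). In ND tumor the difference was -0.70 ± 0.30 (adjusted p = 0.0938), and without ND tumor 1 it passed at -0.996 ± 0.268 (adjusted p = 0.0137).

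Fgfr4 (chromosome 13, 55152640 to 55168759) encodes the receptor tyrosine kinase that beta-Klotho pairs with in hepatocytes. It was at 45.9, 43.1, 42.1 and 78.8 TPM in ND nontumor, with ND nontumor 4 the high one, and at 44.0, 43.3, 76.3 and 72.5 TPM in KD nontumor. In ND tumor it was at 31.7, 48.8, 37.1 and 36.3 TPM, and in KD tumor at 17.9, 8.1, 19.3 and 25.03 TPM. KD tumor lay below each of the other groups with no overlap, and the other 3 groups overlapped. In KD tumor Fgfr4 fell against KD nontumor (-1.74 ± 0.30, adjusted p = 0.000473) and against ND tumor (-1.17 ± 0.30, adjusted p = 0.018). In ND tumor against ND nontumor it differed by -0.40 ± 0.30 (adjusted p = 0.34), a value that is 0.24 on the deposited scale. The interaction was -1.34 ± 0.43 (adjusted p = 0.134), and -1.55 ± 0.41 (adjusted p = 0.0711) without ND nontumor 4. It was -2.31 ± 0.85 on the deposited scale (adjusted p = 0.341), and with listed genes scaled to a common sum it passed (-1.91 ± 0.50, adjusted p = 0.0439), so the call depends on the scale.

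Among the other FGF receptors, Fgfr3 fell in both tumor groups, by 1.06 ± 0.20 on ND (37.8 to 17.1 TPM, adjusted p = 0.000736) and by 1.32 ± 0.20 on KD (35.6 to 13.8 TPM, adjusted p = 0.000145). Fgfr1 was lower in KD tumor than in ND tumor by 1.46 ± 0.45 (adjusted p = 0.0389), at 3.21 ± 1.74 against 11.97 ± 10.50 TPM with overlapping groups. Fgfr2 passed in no comparison, and Kl, the related co-receptor of FGF23, was at most 0.179 TPM and was not tested. Of the summed TPM of Fgfr1 to Fgfr4, Fgfr4 held 44.9% to 49.2% in ND nontumor, 48.3% to 57.5% in KD nontumor, 40.9% to 57.1% in ND tumor and 21.5% to 40.3% in KD tumor. Each KD tumor share was below every other share, and this ratio within a library does not depend on the scale. Fgf1, an FGF that binds all 4 receptors, fell on both diets, by 1.01 ± 0.22 (adjusted p = 0.00233) and 1.82 ± 0.22 (adjusted p = 2.04e-05). Fgf15 was not analysed here.

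Bile acid synthesis is the known readout of FGFR4 with beta-Klotho in liver. The list of 10 genes beside it holds 3 synthesis enzymes, the bile acid sensor's target Nr0b2 and 6 genes of growth factor signalling. Of these 10 genes 3 fell and 1 rose in each tumor comparison, with a median of -0.02 on ND and 0.10 on KD where the median of all tested genes was -0.00 and 0.01. Of all tested genes 14.2% fell and 14.5% rose on ND, and 16.2% and 16.3% on KD. The 3 that fell were Cyp7a1, Cyp8b1 and Cyp27a1, which are all 3 synthesis enzymes of the list. Cyp8b1 had the steepest fall of the 3 on both diets (-5.78 ± 0.37 on ND and -4.62 ± 0.37 on KD). The 1 that rose on both diets was Spred1, a feedback inhibitor of RAS signalling (0.55 ± 0.18 on ND, adjusted p = 0.0284, and 0.69 ± 0.18 on KD, adjusted p = 0.00726). Cyp7a1, the rate-limiting one, was at 3.27 ± 0.92 TPM in ND nontumor, 19.0 ± 3.8 TPM in KD nontumor and 2.18 ± 1.53 TPM in KD tumor, and was listed at 0 in 3 of 4 ND tumor libraries. Its rise on KD in nontumor liver, 2.24 ± 0.25 (adjusted p = 0.000617), was 1 of only 6 genes past the threshold in that comparison. Between the tumor groups it was higher on KD (1.55 ± 0.25, adjusted p = 0.00183). Klb (0.21 ± 0.30) and Fgfr4 (0.17 ± 0.30) did not pass for the diet in nontumor liver (adjusted p = 0.905 and 0.926). The receptor genes and the synthesis enzymes were thus both lower in KD tumor than in KD nontumor. In ND tumor the enzymes fell while Klb and Fgfr4 did not pass. Between the tumor groups, where Fgfr4 was lower on KD, 2 of the 10 genes rose and 0 fell. They were Cyp7a1 and Cyp8b1 (1.30 ± 0.37, adjusted p = 0.0271), where 7.21% of all genes rose and 8.49% fell. A link between receptor and enzyme levels was not tested.

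Angptl4 (chromosome 17, 33773750 to 33781830) encodes the fasting-induced inhibitor of lipoprotein lipase. It was at 258.1, 286.8, 280.2 and 157.8 TPM in ND nontumor and 134.0, 95.0, 164.3 and 201.5 TPM in KD nontumor. In ND tumor it was at 67.7, 31.3, 50.9 and 45.8 TPM, and in KD tumor at 29.8, 37.6, 36.8 and 51.7 TPM. All 8 tumor libraries lay below all 8 nontumor libraries, and ND nontumor 4 stood about where the KD nontumor libraries did. Angptl4 fell by 2.32 ± 0.28 log2 units on ND (adjusted p = 1.48e-05) and by 1.88 ± 0.28 on KD (adjusted p = 0.00013). On the deposited scale the ND value was -1.66 with adjusted p = 0.107, and -2.65 with adjusted p = 1.12e-05 once ND nontumor 4 was left out. In nontumor liver Angptl4 was lower on KD by 0.74 ± 0.28 without passing (adjusted p = 0.4). Leaving out ND nontumor 4 gave -0.93 ± 0.28 (adjusted p = 0.31), and the sign turned on the deposited scale (0.22). With array weights it passed (-1.14 ± 0.22, adjusted p = 0.0112).

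Of 25 PPAR alpha targets listed beside it, 17 fell and 1 rose in ND tumor (median -1.32), and 11 fell and 4 rose in KD tumor (median -0.58). Of all tested genes 14.2% and 16.2% fell. Without rescaling, 4 fell and 1 rose on ND and 5 fell and 0 rose on KD, where 2.41% and 5.39% of all genes fell. Cyp4a14, a fatty acid hydroxylase, fell on ND (-6.89 ± 0.65) and on KD (-4.90 ± 0.65), as did Cyp4a10 (-5.79 ± 0.57 and -3.86 ± 0.57). In KD tumor against ND tumor 15 of the 25 rose and 0 fell (median 0.94), where 7.21% of all genes rose. Among them were Cyp4a14 (3.65 ± 0.65, adjusted p = 0.00303) and the fatty acid carrier Fabp1 (2.50 ± 0.59, adjusted p = 0.0122). The PPAR alpha targets Angptl4 (-0.30 ± 0.28, adjusted p = 0.479) and Fgf21 (0.33 ± 0.27) did not pass in that comparison. On the deposited scale 1 of the 25 rose there (0.29% of all genes), and 15 did without ND nontumor 4 after rescaling (7.55% of all genes). Ppara itself fell in KD tumor against KD nontumor (-1.28 ± 0.29, adjusted p = 0.00333) and did not pass between the tumor groups (0.28 ± 0.29).

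Angptl8 (chromosome 9, 21835510 to 21837347) encodes a feeding-induced regulator of triglyceride clearance and was the most abundant of the 7 genes. It was at 608.8, 749.4, 818.1 and 1370 TPM in ND nontumor, with ND nontumor 4 highest, and at 516.1, 476.0, 1536 and 994.3 TPM in KD nontumor. In ND tumor it was at 3846, 3837, 4729 and 2343 TPM, and in KD tumor at 2236, 1275, 1472 and 999.1 TPM. All 4 ND tumor libraries were above the other 12, and KD tumor overlapped KD nontumor. Angptl8 rose 2.08 ± 0.40 log2 units in ND tumor (adjusted p = 0.00095), and it was lower in KD tumor than in ND tumor by 1.32 ± 0.40 (adjusted p = 0.034). That call was lost on leaving out any 1 of ND tumor 1, 2 or 3 or KD tumor 2, 3 or 4, with values from -1.33 to -1.15 in those 6 fits. In KD tumor against KD nontumor the difference was 0.87 ± 0.40 (adjusted p = 0.103), and without KD nontumor 3 it was 1.19 ± 0.37 (adjusted p = 0.0267). In nontumor liver the diets differed by -0.11 ± 0.40 (adjusted p = 0.974), with the sign changing without ND nontumor 4, KD nontumor 1 or KD nontumor 2 and on the deposited scale. The interaction was -1.21 ± 0.56 (adjusted p = 0.27). The gene lies within Dock6 on the opposite strand and shares 0 exon bases with it.

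Ratios of Angptl8 to Angptl4 and of Fgf21 to Klb pair genes that had already moved in opposite directions between tissues. A split of these ratios by tissue therefore repeats those results and adds no separate support. On KD, Angptl8 alone overlapped between tissues. The ratio of Angptl8 to Angptl4 was 2.36 to 8.68 and 3.85 to 9.35 in the nontumor groups and 51.2 to 122.5 and 19.3 to 75.1 in the tumor groups. The lowest tumor ratio was thus above the highest nontumor one on both diets, with no scaling involved. The ratio of Fgf21 to Klb, hormone to co-receptor, was 3.905 to 9.15 in ND nontumor, 4.17 to 10.8 in KD nontumor, 15.8 to 152.0 in ND tumor and 39.1 to 78.6 in KD tumor, again with no overlap between tissues. The ratio of Fgf21 to Gdf15 did overlap between tissues, at 0.13 to 1.16 in nontumor and 0.45 to 1.25 in tumor libraries.

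**Figure D3:**
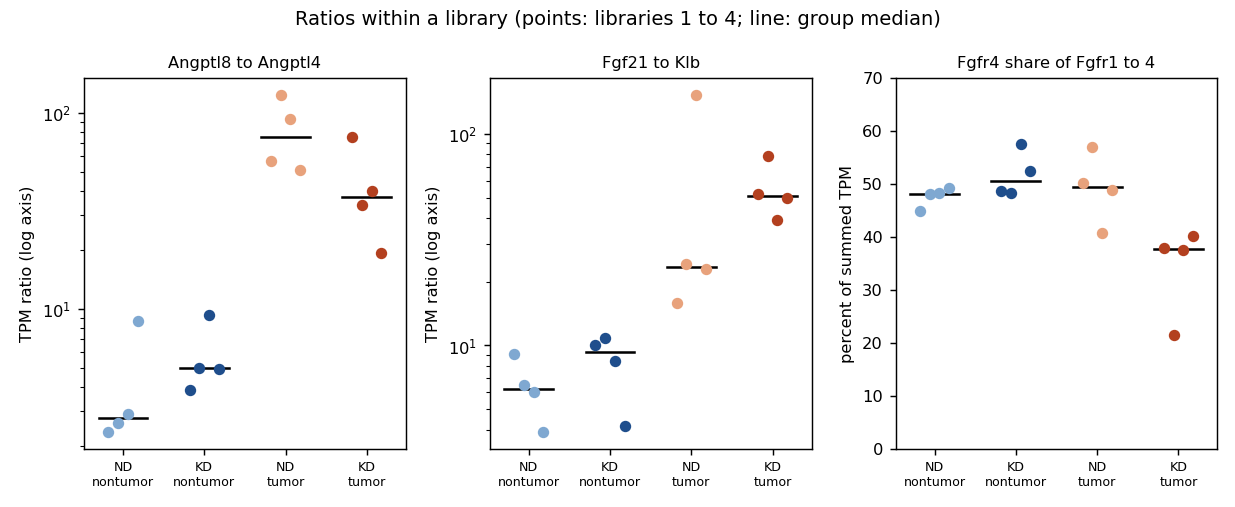
Ratios of TPM within each library, 2 of them on log axes, and the share of Fgfr4 in the summed TPM of Fgfr1 to Fgfr4 on a linear axis from 0; black lines are group medians. Angptl8 to Angptl4 is 51.2 or more in ND tumor and 9.35 or less in nontumor liver, and the Fgfr4 share is lowest in KD tumor.

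The target enzyme of these inhibitors moved too. Lpl, lipoprotein lipase, rose 3.32 ± 0.40 in ND tumor (8.07 to 90.8 TPM, adjusted p = 1.83e-05) and 1.82 ± 0.40 in KD tumor (11.8 to 37.8 TPM, adjusted p = 0.00283), and was lower in KD tumor than in ND tumor by 1.24 ± 0.40 (adjusted p = 0.0477). Lipc, hepatic lipase, fell by 3.21 ± 0.55 and 2.05 ± 0.55. Lipg, endothelial lipase, fell as well (-1.74 ± 0.35 on ND and -2.77 ± 0.35 on KD). Apoa5, which aids triglyceride clearance, fell in ND tumor (-2.52 ± 0.28) and less in KD tumor (-0.95 ± 0.28, adjusted p = 0.0176). It was 2.02 ± 0.28 higher in KD tumor than in ND tumor (adjusted p = 0.000844). Of the 13 lipase genes and controls tested, 5 fell and 1 rose on ND (median -0.60), 4 fell and 1 rose on KD (median -0.21), and 2 rose and 1 fell between the tumor groups (median 0.41). Of all tested genes 14.2% fell and 14.5% rose on ND, 16.2% and 16.3% on KD, and 8.49% and 7.21% between the tumor groups. The 9 monocyte and macrophage markers, cells that also make Lpl, summed to 207.4 to 271.5 TPM in ND nontumor and 590.6 to 2086 TPM in ND tumor. The same sums were 91.8 to 308.2 TPM and 846.0 to 2678 TPM on KD. Spp1 is 1 of these markers and also 1 of 7 cholangiocyte markers, which summed to 531.5 to 1957 TPM in ND tumor and 761.1 to 2563 TPM in KD tumor. The share of Spp1 in the sums was not separated, so neither sum tells whether its other markers rose. The 8 markers of Kupffer cells, the resident liver macrophages, were lower in tumor. They summed to 350.5 to 487.9 TPM in ND nontumor and 17.95 to 40.76 TPM in ND tumor. The part of these cells in the Lpl values was not tested. Adipocytes also express Angptl4 and Angptl8, and the 7 listed of 8 adipocyte markers summed to 36.8 to 90.7 TPM in ND tumor and 52.4 to 98.3 TPM in ND nontumor, with Adipoq at 0 in all 8 of these libraries. On KD they summed to 43.8 to 286.2 TPM in nontumor liver, where Adipoq was not at 0 in every library, and to 32.7 to 55.0 TPM in tumor, where it was. Their part in the Angptl4 and Angptl8 values was not tested.

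Of 21 insulin, LXR and SREBP1c targets, the lipogenic program with which Angptl8 is induced by feeding, 6 rose and 3 fell on ND (median -0.13), and 6 rose and 4 fell on KD (median 0.34). Among all tested genes 14.5% rose and 14.2% fell on ND, and 16.3% and 16.2% on KD. Pnpla5, a lipid droplet lipase family gene, rose by 4.84 ± 0.57 on ND and 4.91 ± 0.57 on KD. Scd1, which desaturates stearate, was 4.33 ± 0.39 lower on KD in nontumor liver (988.7 to 52.2 TPM, adjusted p = 6.31e-05) and rose 3.12 ± 0.39 in KD tumor against KD nontumor. In KD tumor against ND tumor, where Angptl8 was lower, 3 of the 21 rose and 0 fell, where 7.21% of all genes rose. They were Pnpla3, Elovl5 and Lpcat3. Without rescaling, 0 of the 21 rose, and after it 2 did without ND nontumor 4.

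Angptl6 (chromosome 9, 20873808 to 20879727) encodes a circulating angiopoietin-like protein also called angiopoietin-related growth factor. It was at 16.9, 11.3, 12.2 and 15.1 TPM in ND nontumor and 9.8, 15.97, 6.0 and 8.6 TPM in KD nontumor. In ND tumor it was at 22.8, 9.3, 11.9 and 10.4 TPM, and in KD tumor at 6.7, 5.3, 6.0 and 4.2 TPM. The KD tumor libraries lay below all ND tumor libraries, and ND tumor 1 was the highest of all 16. Angptl6 was lower in KD tumor than in ND tumor by 1.08 ± 0.27 log2 units (adjusted p = 0.0168). Without ND tumor 1 the call was lost, at -0.82 ± 0.25 (adjusted p = 0.053), as it was without KD tumor 4 at -0.98 ± 0.30 (adjusted p = 0.0541). KD tumor against KD nontumor gave -0.69 ± 0.27 (adjusted p = 0.063), and without KD nontumor 3 it passed (-0.89 ± 0.27, adjusted p = 0.0266). The difference of ND tumor from ND nontumor was -0.09 ± 0.27 (adjusted p = 0.835). The last value is 0.45 on the deposited scale. Exons of Angptl6 share 265 bases with A230050P20Rik on the opposite strand; whether reads were counted by strand is not given in the sources used here, so its level may hold reads of that gene.

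Gdf15 (chromosome 8, 70629393 to 70632456) encodes the stress hormone. It was at 106.6, 140.0, 60.9 and 149.1 TPM in ND nontumor and 122.2, 58.5, 54.7 and 79.4 TPM in KD nontumor. In ND tumor it was at 136.4, 91.7, 209.3 and 167.1 TPM, and in KD tumor at 133.7, 187.2, 91.5 and 114.8 TPM. The groups overlapped in all 4 comparisons. Gdf15 differed by 0.42 ± 0.33 in ND tumor (adjusted p = 0.375) and by 0.76 ± 0.33 in KD tumor (adjusted p = 0.0896), the latter passing without KD nontumor 1 (0.997 ± 0.334, adjusted p = 0.0317). Between diets it differed by -0.53 ± 0.33 in nontumor liver (adjusted p = 0.703) and -0.18 ± 0.33 in tumors (adjusted p = 0.739), and the former is 0.42 on the deposited scale. Its receptor gene Gfral was not analysed here, and the co-receptor Ret was at most 0.286 TPM and was not tested.

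The integrated stress response and p53 are known inducers of Gdf15, and the former also of Fgf21. Of 26 tested genes of the integrated stress response, 14 rose and 3 fell on ND (median 0.80), and 14 rose and 4 fell on KD (median 0.63), where 14.5% and 16.3% of all genes rose. The serine synthesis enzyme Phgdh rose by 4.21 ± 0.49 and 4.01 ± 0.49, and Asns, asparagine synthetase, by 2.79 ± 0.33 and 3.50 ± 0.33. Atf4 was higher in ND tumor by 0.72 ± 0.15 (adjusted p = 0.00172) and missed the threshold in KD tumor (0.38 ± 0.15, adjusted p = 0.0603). Between the tumor groups 3 rose and 2 fell, where 7.21% and 8.49% of all genes did. The stress factor gene Ddit3 was lower on KD by 1.26 ± 0.32 (adjusted p = 0.0168) and Atf5 higher by 1.34 ± 0.30 (adjusted p = 0.00893). Of 16 targets of p53, a known inducer of GDF15, 11 rose and 0 fell on ND (median 1.32), and 10 rose and 1 fell on KD (median 1.05). Examples were Phlda3 (3.43 ± 0.53 and 3.98 ± 0.53) and Eda2r on ND (2.95 ± 0.25). On the deposited scale the stress response counts were 12 higher and 1 lower on ND and 6 and 0 on KD, and the p53 counts 9 and 0, and 5 and 0. There 8.14% and 2.41% of all genes were higher and lower on ND, and 2.88% and 5.39% on KD. After rescaling Fgf21 rose on both diets and Gdf15 passed on neither.

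**Figure D4:**
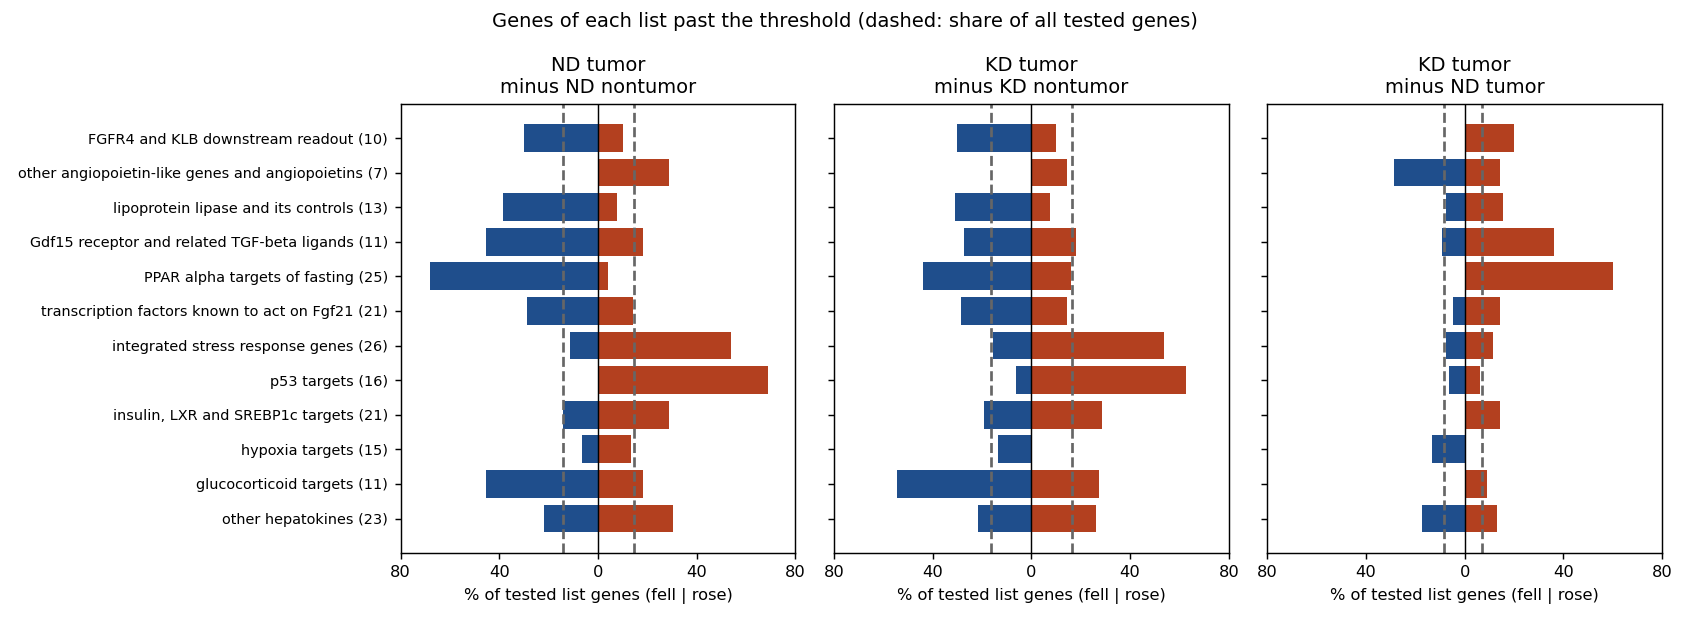
Share of the tested genes of 12 lists, those with at least 7 tested genes (number in brackets), that rose (right) or fell (left) with an adjusted p below 0.05 after rescaling in 3 comparisons; dashed lines are the shares among all tested genes. In both tumor comparisons the p53 and integrated stress response lists have longer rise bars than fall bars, and the PPAR alpha list the reverse. Between the tumor groups the PPAR alpha list has only a rise bar.

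The remaining lists were smaller or mixed. Among all tested genes 14.5% rose and 14.2% fell on ND, and 16.3% rose and 16.2% fell on KD. Of 21 transcription factors known to act on Fgf21, 3 rose and 6 fell on each diet in tumor, and on the deposited scale 0 rose on either diet, 0 fell on ND and 2 fell on KD. Among those that fell, Creb3l3, a liver factor that works with PPAR alpha, did so on both diets (-1.21 ± 0.22 on ND and -1.02 ± 0.22 on KD). Mlxipl, the carbohydrate-response factor, also fell on both (-1.20 ± 0.31 on ND, adjusted p = 0.0077, and -2.04 ± 0.31 on KD, adjusted p = 0.000157). Of 15 hypoxia targets, a known stimulus of Angptl4, 2 rose and 1 fell on ND, and 0 rose and 2 fell on KD, among them Vegfa (-1.52 ± 0.34, adjusted p = 0.00305). The mean log2(rescaled TPM + 1) of the 15 genes was 4.79 in ND tumor 4 and 3.35 to 3.63 in the other 3 ND tumor libraries. Of 11 glucocorticoid targets, 5 fell and 2 rose on ND and 6 fell and 3 rose on KD; Tat, a tyrosine catabolic enzyme, fell (-3.72 ± 0.51 and -3.48 ± 0.51) and the metallothionein Mt2 rose by 3.65 ± 0.61 and 3.86 ± 0.61. Of 11 TGF-beta family genes related to Gdf15, 2 rose and 5 fell on ND and 2 rose and 3 fell on KD. Inhbe, a liver-made activin subunit, was higher in KD tumor than in ND tumor by 1.44 ± 0.21 (adjusted p = 0.0011) and passed for the interaction (1.75 ± 0.30, adjusted p = 0.0225). Of 7 other angiopoietin family genes 2 rose on ND and 1 on KD, and the vessel receptor Tie1 rose on ND (0.86 ± 0.25, adjusted p = 0.017). Of 2 tested FGF ligands, Fgf1 was the one that fell.

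Other secreted liver hormones split as well. Of 23, 7 rose and 5 fell on ND (median -0.29), and 6 rose and 5 fell on KD (median 0.40). The shares of all tested genes were 14.5% higher and 14.2% lower on ND, and 16.3% and 16.2% on KD. Hamp, the iron hormone hepcidin, fell by 3.60 ± 0.87 and 4.11 ± 0.87, Tsku fell as well (-2.75 ± 0.37 and -4.09 ± 0.37), and Igf1, the growth hormone effector, fell by 2.49 ± 0.35 on ND. Serpina12, the adipokine vaspin, rose by 2.92 ± 0.35 on KD, and Igfbp2, an IGF-binding protein, was higher in KD tumor than in ND tumor by 3.11 ± 0.47 (adjusted p = 0.00124). For the diet in nontumor liver, 2 of the 198 tested genes on the 14 lists passed, Cyp7a1 and Scd1, and for the interaction 2, Inhbe and Scd1. Of all tested genes 0.0447% and 0.61% passed in these tests.

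The genes most like each member over the 16 libraries were found among 7837 genes by Pearson's r of log2 levels, given with the r of deviations from group means in brackets, as a description with no test; all points share the group structure. For Angptl4 the closest was Cyp4a32, a fatty acid hydroxylase of the PPAR alpha list, at 0.98 (0.91), followed by Elmod3 and Amn1. For Fgf21 they were Josd1 at 0.94 (0.65), Cacul1 and Ppp2r5c. For Klb they were Vps13d at 0.94 (0.90), Kctd2 and Ankzf1, and for Fgfr4 Vwce at 0.95 (0.93), Srrt and Abcc10. For Angptl8 they were Exosc10 at 0.96 (0.83), Ccdc125 and Tpra1. For Angptl6, Actn4 at 0.88 (0.69) led Stab1 and Sipa1, and for Gdf15, Tmem43 at 0.82 (0.72) led Cav2 and Junb. Between the members, Fgf21 and Angptl4 stood at -0.79 over all libraries and at 0.46 within groups, and Fgf21 and Klb at -0.73 and -0.35. Fgf21 and Gdf15 stood at 0.37 and 0.10.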

How the data were processed

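Polyadenylated RNA of 16 samples was extracted with Trizol, per the labels' protocols. The submitters' processing notes name featureCounts, FastQC, SAMtools, HISAT2 and the build mm10, without versions or order. The authors deposited TPM for 20601 genes; how counts became TPM, the annotation and strandedness are not given in the sources used here. Nontumor columns carry P where titles carry N and were matched by diet letters and number. TPM values were whole multiples of a step per gene in 100.0% of genes (tolerance 0.001 reads), and implied gene lengths equalled GENCODE M21 exon lengths, within a relative tolerance of 0.0001, for 18309 of 19991 symbols.

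Each library's TPM was divided by its median-of-ratios factor, taken from the 12119 genes detected in every library. limma 3.58.1 (R 4.3.3) with a variance trend was fitted to log2(value + 1) of the 13432 genes that reached TPM 1 in 4 or more libraries, 4 groups in 1 fit, no block. The members, 14 gene lists and scale were chosen with earlier results of these data known, and deposited TPM is the alternative. Genes named are the 7 members, up to 3 called genes per list and comparison by size (5 TPM or more in the higher group), and 3 genes most like each member. Fgfr2, Ppara, Atf4, Hnf4a and genes given only as levels were added after values were seen. So were some comparisons of named genes, such as Cyp7a1 and Cyp8b1 between the tumor groups. A gene named for only ND or KD may have passed on the other diet as well. Fits were tested on simulated data. Other settings and their effects are in the closing section. No libraries of a group were copies (chi-square per degree of freedom of at least 11.6). Python 3.11.15 and matplotlib 3.10.9 were used.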

Additional observations from a re-analysis of the deposited data

Results flagged for a closer look

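Fgfr4 in ND nontumor 4 stood at 78.8 TPM, far from the other 3 libraries of its group at 42.1 to 45.9 TPM. Of 28 member-by-group sets examined 1 stood out in this way, and chance flags about 1 in 20. The same library had the lowest share of its TPM total in the listed genes, 7.38% against 73.36% to 84.29% in the other 3 ND nontumor libraries.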

How the results depend on the processing

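Of 924 alternatives computed for the 35 member values, 875 kept direction and side of the threshold, 22 changed sign, 14 lost a call and 13 gained one. The cause was not tested. On the deposited scale 1418, 1111, 113, 65 and 14 genes passed in the 5 tests (ND tumor, KD tumor, KD against ND tumor, diet in nontumor liver, interaction) in place of 3855, 4361, 2109, 6 and 82, and 0 members passed between tumors. Calls lost there were Angptl4 in ND tumor (-1.66), Fgf21 in KD tumor (0.914), and between tumors Fgfr4 (-1.21), Angptl6 (-1.12) and Angptl8 (-1.36). Signs turned there in ND tumor for Fgfr4 (0.24) and Angptl6 (0.454), for the diet in nontumor liver for Angptl4 (0.215), Angptl6 (0.332), Angptl8 (0.854) and Gdf15 (0.421), and in the interaction for Angptl4 (-0.552) and Gdf15 (-0.643). With listed genes scaled to a common sum, 13 genes passed for the diet in nontumor liver and 546, with 1 member, for the interaction (Fgfr4, -1.91), and Angptl6 passed in KD tumor (-0.984). Signs turned for Angptl6 in ND tumor (0.144), Fgf21 between tumors (-0.141), Angptl8 in nontumor liver (0.002), and the interactions of Angptl4 (-0.138) and Gdf15 (-0.235). With no filter, Angptl8 between tumors (-1.32) missed the threshold, and 10 and 32 genes passed for nontumor diet and interaction. Fitting only the groups compared gave 2 genes for the nontumor diet. Array weights gave 433 genes and 1 member (Angptl4, -1.14) there and 386 for the interaction. Klb in ND tumor (-0.698), Angptl6 (-0.949) and Angptl8 (1.44) in KD tumor then passed, and Klb turned in nontumor liver (-0.091). The deposited scale without ND nontumor 4, chosen after seeing the data, gave 129 interaction genes, a call for Angptl6 in KD tumor (-1.002), and turned signs for Angptl8 in nontumor liver (0.282) and the Gdf15 interaction (-0.008). The member calls lost on the deposited scale with all libraries returned in this fit. Between tumors these were Fgfr4 (-1.21, adjusted p = 0.0186), Angptl6 (-1.12, adjusted p = 0.0222) and Angptl8 (-1.36, adjusted p = 0.0276). The others were Angptl4 in ND tumor (adjusted p = 1.12e-05) and Fgf21 in KD tumor (adjusted p = 0.0178).

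Same-numbered tumor and nontumor libraries correlated at -0.112 to 0.164 in their deviations, 2 of 8 pairs over 0.1. Libraries of different numbers on the same diet spanned -0.229 to 0.181, a range that covers the same-numbered values. These correlations therefore cannot tell whether equal numbers mark the same mouse. A block by diet and replicate number assumes that equal numbers on a diet mark the same mouse. With this block, 3448 and 3909 genes passed in the tumor comparisons and 32 for the interaction, and Angptl6 passed in KD tumor (-0.694).

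Leaving out 1 library at a time gave 1027 to 2511 genes and 1 to 3 members between tumors (1 without ND tumor 1 or KD tumor 4), 5 to 12 genes for the nontumor diet and 9 to 160 for the interaction. Ranges were -0.996 to -0.38 for Klb, and -0.354 to 0.05 for Angptl6, in ND tumor. In KD tumor they were -0.891 to -0.465 for Angptl6, 0.631 to 1.19 for Angptl8 and 0.579 to 0.997 for Gdf15. Between tumors they were -0.598 to 0.018 for Klb, -1.22 to -0.82 for Angptl6 and -1.54 to -1.15 for Angptl8, and in nontumor liver -0.435 to 0.128 for Angptl8. Of the named list genes' alternatives 2523 held, 147 lost the call and 0 turned. Depth limits Klb, Angptl6 and Fgf21 most, with as few as 28, 34 and 40 reads in a library.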
